A study of Mus musculus with 36 samples.

Results

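The comparison described here set mouse embryonic stem cells (mESCs) after 48 h on stiff StemBond hydrogels against the same cells after 24 h on stiff gels, both in serum + LIF. Its members were the 3 RNA sequencing libraries labelled stiff, 48 h, serum+LIF and the 3 labelled stiff, 24 h, serum+LIF, which are 6 of the 36 libraries in the series, and every expressed gene was tested. StemBond hydrogels are polyacrylamide gels to which matrix protein is tethered covalently, and LIF is a cytokine that sustains self-renewal of mESCs through STAT3. The series used soft and stiff gels and tissue culture plastic, with or without LIF and with or without PD03, an inhibitor of MEK. All 6 libraries of the comparison carried the genotype 129m wt, the same substrate and the same medium, without PD03, so that the time on the gel (24 or 48 h) was the labelled difference. The labels named neither a clone nor separate cultures behind the 3 libraries of a group. The p-values therefore measure the spread between libraries within groups, which was estimated jointly over all 36 libraries and may be technical.

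Cells that adhere to a firm surface assemble actin filaments at integrin adhesions, which lowers the pool of free actin monomers that hold back the coactivators of the transcription factor SRF. SRF drives genes for actin and its binding proteins, while YAP and TAZ, the effectors of the Hippo pathway, act through TEAD factors on genes for matrix, signalling and growth. mESCs in serum + LIF express the pluripotency factors Oct4 (Pou5f1), Sox2 and Nanog, and individual cells vary in naive genes, which mark the pre-implantation state.

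Total counts were 19857202 to 22530889 at 24 h and 13929917 to 19412658 at 48 h, so the later libraries were shallower. The sample descriptions placed all 24 h libraries and 1 of the 3 48 h libraries in the first of 3 sequencing pools and the other 2 in the second pool. The columns of the count table carried group names only, so it is not known which 48 h library belonged to the first pool, and library numbers 1 to 3 are names without order. Each gene was therefore also tested with a pool term under each of the 3 possible assignments, which rests the comparison on 1 library of 48 h. No library stood apart within its group, since pairs differed by a root mean square of 0.447 to 0.452 (log2 CPM) within 24 h, 0.467 to 0.503 within 48 h and 0.526 to 0.595 between the times. Coordinates are of build GRCm38 with the GENCODE M21 annotation. CPM are counts scaled to a common library size (TMM), means are given ± SD (n = 3), and a log2 fold change is always 48 h minus 24 h. Summed CPM of cell type markers, here and later, were scaled by total counts alone, without TMM. The summed CPM of 5 embryonic stem cell markers was 1740 to 1780 at 24 h and 1900 to 2020 at 48 h. That of 6 primitive endoderm markers was 29.6 to 33.8 and 33.2 to 35.3. For 5 neural markers the sums were 43.1 to 51.6 and 41.2 to 44.2, and for 6 mesoderm markers 16.8 to 20.4 and 14.1 to 16.5. In bulk RNA, fewer cells of a type and less RNA per cell cannot be told apart.

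Over the second day on stiff gels, all tested SRF targets fell, as did most YAP and TEAD genes, most integrin and focal adhesion genes and the Id genes Id1, Id2 and Id3. The Nodal antagonists Lefty1 and Lefty2 rose, as did most tested genes of cholesterol synthesis, DNA replication and ribosome biogenesis. The rises of these lists were smaller, with median log2 fold changes of 0.30, 0.17 and 0.16, against -0.88 for SRF targets. By edgeR's quasi-likelihood test with Benjamini-Hochberg adjustment over 17702 genes, 4535 genes were past an adjusted p of 0.05, which is 25.6% of those tested. Of these, 2230 (12.6%) were higher and 2305 (13%) lower at 48 h. The decreases were larger, with a median log2 fold change of -0.46 among lower genes and of 0.28 among higher genes, against -0.015 over all genes. A change of at least 2-fold was found for 90 higher and 341 lower genes. Among the genes past the threshold, which were called from the same libraries, all 48 h values lay outside the range of the 24 h values for 4304 of 4535 (94.9%), against 6758 of all 17702 genes (38.2%). With the pool term, 2243 to 2398 genes were past the threshold, and 1325 (693 higher and 632 lower) were past it under all 3 assignments.

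**Figure D1:**
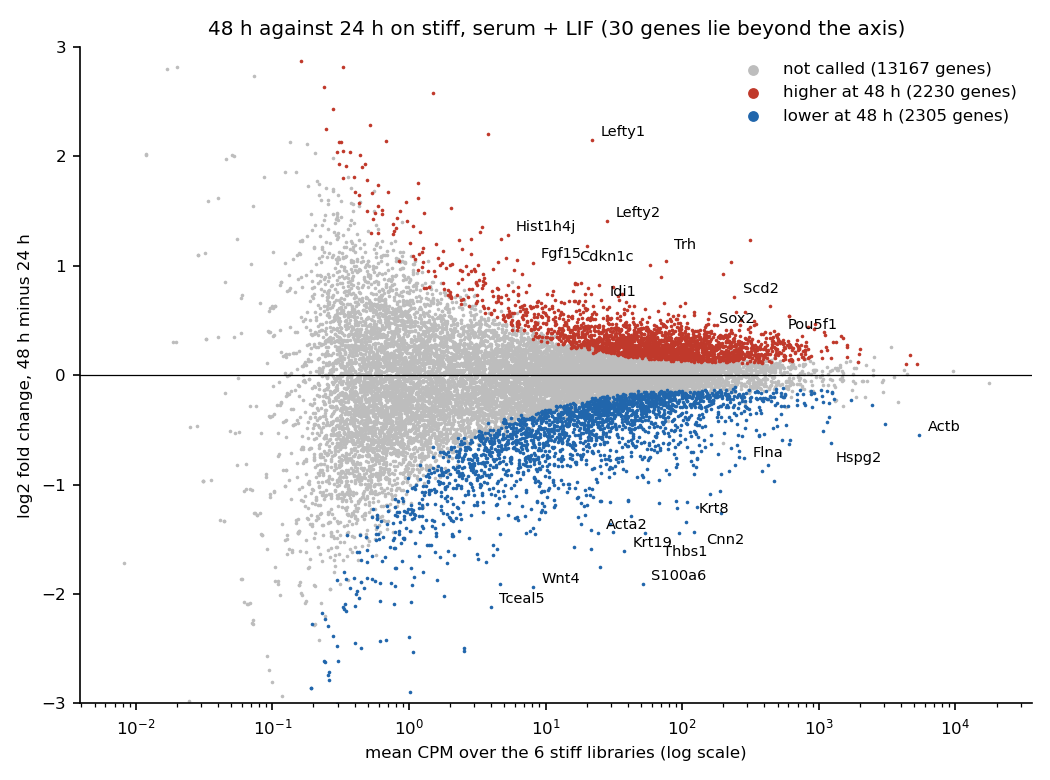
Mean level over the 6 stiff libraries (CPM, log axis) against the log2 fold change from 24 h to 48 h for each of 17702 genes, with genes past the threshold in red (2230 higher) and blue (2305 lower) and 30 genes beyond the vertical axis not shown. Decreases extend further than increases, and Lefty1, at 2.15, has the largest labelled increase.

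All 19 tested SRF targets fell, against 13% of all genes. None of them overlapped between the times, which also held for 38.2% of all genes and 94.9% of those past the threshold. Their median log2 fold change was -0.88, and 17 of the 19 were past the threshold under each of the 3 pool assignments. The list holds actins, calponins, tropomyosins, filamins and other genes known to need SRF. It was drawn up with earlier results of these samples known, so its count is not independent evidence of its direction. Acta1, which encodes skeletal muscle actin (ENSMUSG00000031972, chromosome 8, 123891769 to 123894751, minus strand), measured 12, 12.8 and 12.4 CPM at 24 h and 4.41, 3.27 and 5.63 CPM at 48 h. Each 48 h value was below 12 CPM, the lowest at 24 h, and the log2 fold change was -1.45 ± 0.14 (± SE, as for all later changes, edgeR adjusted p = 1.49e-11). Smooth muscle actin, Acta2, measured 35.9, 34.9 and 35.3 CPM at 24 h and 12.3, 15.7 and 11.4 CPM at 48 h, a change of -1.44 ± 0.13. Cnn2 (ENSMUSG00000004665, chromosome 10, 79988584 to 79996062, plus strand) encodes calponin 2, an actin-binding protein, and was the member with the smallest p, at 172, 178 and 185 CPM at 24 h and 63.9, 62.9 and 70.98 CPM at 48 h. It changed by -1.43 ± 0.062 (edgeR adjusted p = 2.23e-23), and the 48 h values were all far below those at 24 h. Myl9, a regulatory light chain of myosin (ENSMUSG00000067818, chromosome 2, 156775420 to 156781658, plus strand), measured 32.6, 33.1 and 28.8 CPM at 24 h and 11.7, 11.1 and 12.5 CPM at 48 h, a change of -1.41 ± 0.094 (edgeR adjusted p = 7.06e-17). Fhl2, a LIM domain protein, had the largest decrease of the list, at -1.64 ± 0.22, from 4.73 ± 0.800 to 1.52 ± 0.547 CPM. The abundant cytoskeletal genes fell by less. Actb, cytoplasmic beta-actin, had the highest level of the list per kilobase of transcript and measured 6403, 6381 and 6544 CPM at 24 h and 4371, 4505 and 4352 CPM at 48 h, a fold change of -0.55 on the log2 scale, and Actg1, cytoplasmic gamma-actin, had the smallest decrease at -0.25 ± 0.059. Srf itself went from 127 ± 2.22 to 97.7 ± 1.95 CPM, a change of -0.38 ± 0.048 (edgeR adjusted p = 1.49e-08).

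Promoter sequence is shown for members of this list because SRF is known to bind the CArG box. Of the 19 SRF targets, 17 had a window of 250 bases before to 50 bases after the start in RefSeq (build GRCm38.p6). A CArG box, searched on both strands, was found in 7 of these 17 genes (41.2%). It was found in 195 of 11989 tested genes with a window (1.63%), 2.73% of those lower and 1.35% of those higher at 48 h. Some genes had several windows, and a gene was counted once if any of its windows matched. The list was drawn up from knowledge of SRF binding, so the share describes how its members were chosen. The 250 bases upstream of the start are printed 5′ to 3′ in the direction of the gene, with the CArG box in capitals. They lie at chr8:123894776-123895025 (minus strand) for Acta1, chr10:79988350-79988599 (plus strand) for Cnn2, chr2:156775214-156775463 (plus strand) for Myl9 and chr17:46556163-46556412 (minus strand) for Srf.
Acta1: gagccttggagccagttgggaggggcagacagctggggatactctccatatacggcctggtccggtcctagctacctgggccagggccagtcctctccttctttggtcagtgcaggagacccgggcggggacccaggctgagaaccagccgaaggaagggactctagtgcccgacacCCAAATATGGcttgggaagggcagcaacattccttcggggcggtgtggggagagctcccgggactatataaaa
Cnn2: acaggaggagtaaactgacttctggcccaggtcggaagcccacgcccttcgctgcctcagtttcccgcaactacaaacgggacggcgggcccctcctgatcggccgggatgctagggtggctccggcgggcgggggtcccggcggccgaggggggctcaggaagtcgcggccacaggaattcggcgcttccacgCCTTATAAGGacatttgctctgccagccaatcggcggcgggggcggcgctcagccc
Myl9: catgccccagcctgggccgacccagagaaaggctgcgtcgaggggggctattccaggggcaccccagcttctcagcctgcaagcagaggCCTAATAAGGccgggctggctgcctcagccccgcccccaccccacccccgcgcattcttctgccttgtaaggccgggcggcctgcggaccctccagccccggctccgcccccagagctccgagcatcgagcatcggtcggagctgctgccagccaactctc
Srf: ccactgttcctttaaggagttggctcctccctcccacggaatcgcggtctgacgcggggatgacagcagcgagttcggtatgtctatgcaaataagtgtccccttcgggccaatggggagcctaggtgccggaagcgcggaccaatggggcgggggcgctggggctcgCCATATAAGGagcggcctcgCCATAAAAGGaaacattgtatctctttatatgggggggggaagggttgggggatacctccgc
The box begins 73 bases before the start in Acta1, 56 bases in Cnn2 and 161 bases in Myl9, and Srf holds 2 boxes that begin 82 and 62 bases before it.

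**Figure D2:**
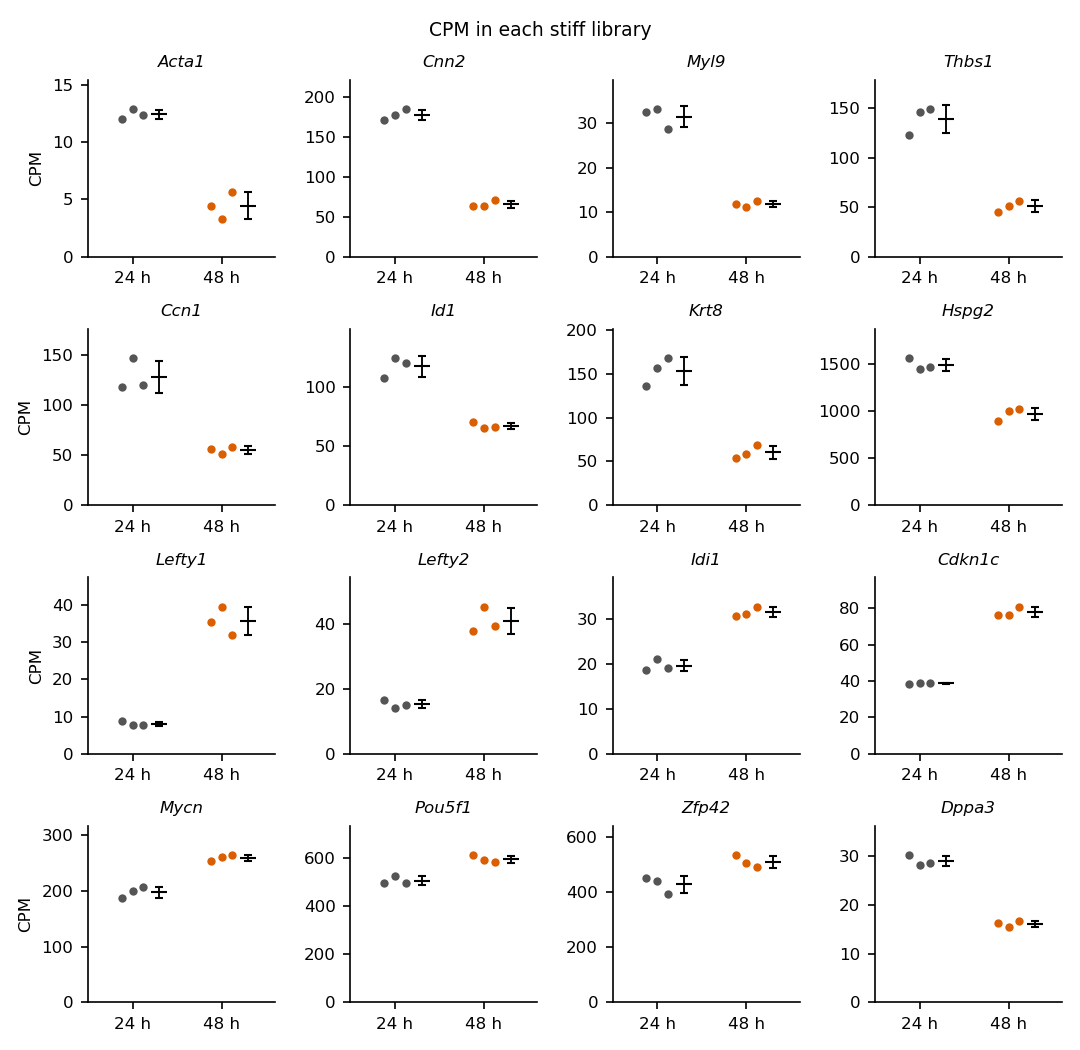
CPM of 16 genes in each of the 3 libraries at 24 h (grey) and the 3 at 48 h (orange), with the mean and SD of each group in black and every axis starting at 0. None of the 16 genes overlaps between the times, which also holds for 38.2% of all tested genes and 94.9% of those past the threshold.

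Of 17 YAP and TEAD genes tested, 13 fell (13% over all genes), 1 rose (12.6% over all genes) and 3 did not pass the test, and these shares over all genes hold for every list described later. The median was -0.65. Of the 13, 11 were past the threshold under every pool assignment. The matricellular protein Thbs1 (ENSMUSG00000040152, chromosome 2, 118111876 to 118127133, plus strand) measured 123, 146 and 149 CPM at 24 h and 45.01, 51.7 and 56.7 CPM at 48 h, a log2 fold change of -1.44 ± 0.074 (edgeR adjusted p = 2.26e-20). Ankrd1, a nuclear repeat protein induced by YAP, had the largest decrease of the list at a low level (1.15 ± 0.334 to 0.203 ± 0.0591 CPM, -2.42 ± 0.60), a call made under none of the pool assignments. Ccn1 and Ccn2 encode secreted matricellular proteins and are standard readouts of YAP. Ccn1 measured 118, 147 and 120.1 CPM at 24 h and 56.2, 51.1 and 58.5 CPM at 48 h, a change of -1.22 ± 0.092, and Ccn2 went from 115 ± 4.70 to 78.6 ± 2.15 CPM, a change of -0.55 ± 0.052. The groups did not overlap for either gene. The Hippo kinase Lats2 and the angiomotin-like genes Amotl1 and Amotl2, which restrain YAP and are induced by it, changed by -1.07, -0.76 and -0.66. Among the TEAD factors, Tead4 fell from 34.5 ± 4.63 to 15.4 ± 1.61 CPM (-1.15 ± 0.095) and Tead1 by less (-0.29 ± 0.046), while Tead2 was the member that rose (0.19 ± 0.053, edgeR adjusted p = 0.00578), a call made under none of the pool assignments. Taz (Wwtr1) fell by 0.31 on the log2 scale. Yap1 did not pass the test, at 127 to 141 CPM at 24 h and 136 to 143 CPM at 48 h, and its ranges overlapped. The TEAD motif GGAATG was found on either strand in 9 of the 12 genes of the list with a window (75%). Among all tested genes with a window it was found in 14.8%, and in 18.1% of those lower and 12% of those higher at 48 h. It was also found in 7 of the 17 SRF targets with a window (41.2%), and the YAP and TEAD list was drawn up from known targets. The match in Ccn1, at chr3:145649986-145650235 (minus strand), begins 103 bases before the start and lies in reverse orientation.
Ccn1: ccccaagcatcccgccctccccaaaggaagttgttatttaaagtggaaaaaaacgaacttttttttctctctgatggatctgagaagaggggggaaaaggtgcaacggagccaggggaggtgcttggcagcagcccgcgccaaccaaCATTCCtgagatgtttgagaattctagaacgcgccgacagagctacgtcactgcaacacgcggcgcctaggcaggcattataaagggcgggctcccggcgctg

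Of 21 integrin and focal adhesion genes, 13 fell and 1, Lims1, rose, with a median of -0.37, and 7 of the 13 were past the threshold under every pool assignment. Parva, an actin-linking adaptor of integrins, measured 42.1, 48.2 and 47.05 CPM at 24 h and 14.3, 16.5 and 19.6 CPM at 48 h, the largest change of the list at -1.43 ± 0.094 (edgeR adjusted p = 5.22e-17). The laminin receptor subunit Itga3 measured 203, 226 and 226 CPM at 24 h and 95.9, 94.7 and 118 CPM at 48 h, a change of -1.08 ± 0.067, and Itgb4, a subunit found in hemidesmosomes, went from 23.1 ± 1.30 to 13.8 ± 1.45 CPM (-0.74 ± 0.088). Receptors for fibronectin changed less. Itga5 changed by -0.52 ± 0.059, Itgav by -0.26 ± 0.063 and Itgb1, the common beta subunit, by -0.19 ± 0.054, the last of these without a call under any pool assignment. The adaptors talin 1 (Tln1, -0.48 ± 0.051) and vinculin (Vcl, -0.46 ± 0.05) fell, whereas focal adhesion kinase (Ptk2) and paxillin (Pxn) did not pass the test and overlapped between the times. Among the genes with the largest difference in level, the monomer-binding proteins profilin (Pfn1) and thymosin beta 10 (Tmsb10) stood beside Actb. Pfn1 measured 1357, 1193 and 1215 CPM at 24 h and 875, 912 and 856 CPM at 48 h, and Tmsb10 measured 1338, 1399 and 1223 CPM at 24 h and 980.1, 1006 and 954 CPM at 48 h. All 48 h values were below the 24 h values for both, with log2 fold changes of -0.51 ± 0.058 and -0.43 ± 0.06.

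Matrix genes were lower at 48 h where they differed, with few exceptions. Of 18 collagen genes tested, 8 fell and 1 rose (median -0.59), of 15 laminin and basement membrane genes 9 fell (median -0.28), and of 21 matrix enzymes and inhibitors 8 fell (median -0.34). Calls under every pool assignment numbered 4, 6 and 2. Perlecan (Hspg2), a basement membrane proteoglycan with one of the largest decreases in CPM, measured 1561, 1440 and 1461 CPM at 24 h and 894, 996 and 1018 CPM at 48 h, a change of -0.62 ± 0.069 (edgeR adjusted p = 1.05e-09). The groups were far apart. The basement membrane collagen genes Col4a1 and Col4a2, which are neighbours on chromosome 8 and share a promoter region, measured 128, 124 and 126 CPM at 24 h and 89.7, 95.8 and 101 CPM at 48 h for Col4a1 and 75.4, 80.8 and 85.6 CPM at 24 h and 48.4, 54.4 and 52.96 CPM at 48 h for Col4a2. Their log2 fold changes were -0.40 ± 0.057 and -0.63 ± 0.064. The laminin chains diverged. Lamb3, a chain of epithelial laminin, fell by 1.66 on the log2 scale. The chains Lama1 and Lamc1, which form the laminin of early embryos with Lamb1, did not pass the test and overlapped between the times. Serpinh1, the collagen chaperone Hsp47, measured 55.7, 56.7 and 72.4 CPM at 24 h and 31.4, 32.5 and 33.01 CPM at 48 h, a change of -0.93 ± 0.08. Fibronectin (Fn1), the protein that also coats the gels, was at 1264, 1195 and 1128 CPM at 24 h and 1048, 1128 and 1079 CPM at 48 h, a change of -0.14 ± 0.046 (edgeR adjusted p = 0.0181) that was past the threshold under 1 pool assignment. Col1a1 and Col1a2, the chains of the fibrillar collagen of connective tissue, fell from 39.4 ± 2.90 to 21.7 ± 2.80 CPM and from 4.71 ± 1.05 to 2.19 ± 0.321 CPM. These genes are also fibroblast markers, of which 2 of 10 tested fell and 1, Thy1, rose. The summed CPM of 11 fibroblast and feeder markers was 66.7 to 75.6 at 24 h and 48.7 to 56.7 at 48 h. None was at 0 in all libraries, though Lum had 1 count in 1 library only. The fall in the sum lay mainly in Col1a1, the marker with most counts in every library. The part of such cells in the result was not tested.

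Of 11 genes of intermediate filaments and lamins, 7 fell and 1 rose (median -0.51, 5 under every pool assignment), and of 17 junction genes, 8 fell and 2 rose (median -0.23, 6 lower under every assignment). Krt8 and Krt18 pair to form the keratin filaments of simple epithelia. Krt8 measured 137, 157 and 168 CPM at 24 h and 54.3, 58.6 and 68.98 CPM at 48 h, a change of -1.34 ± 0.079 (edgeR adjusted p = 1.2e-18), and Krt18 went from 125 ± 7.76 to 56.2 ± 3.21 CPM (-1.15 ± 0.072). Krt19 had the largest change of the list at -1.61 ± 0.11, with 56.6, 49.4 and 64.5 CPM at 24 h and 18.3, 16.1 and 21.1 CPM at 48 h. Lamin A (Lmna), whose protein level is known to follow tissue stiffness, fell from 62.8 ± 3.92 to 44.1 ± 3.08 CPM (-0.51 ± 0.073), while lamin B1 (Lmnb1) rose from 372 ± 5.31 to 424 ± 10.1 CPM (0.19 ± 0.045). Desmoplakin (Dsp), the linker of keratins to desmosomes, measured 163, 167 and 148 CPM at 24 h and 79.7, 85.5 and 90.7 CPM at 48 h, a change of -0.90 ± 0.054. Claudins 3, 4, 6 and 7, which seal tight junctions, changed by -0.73, -0.86, -0.63 and -0.94 on the log2 scale. E-cadherin (Cdh1) and Epcam did not pass the test. Of 10 trophoblast genes, 6 fell (median -0.65, 4 under every pool assignment). Besides Krt7, Krt8 and Krt18 these were the transcription factors Gata3 (29.4 ± 1.86 to 14.3 ± 0.856 CPM, -1.04 ± 0.092), Hand1 (22.2 ± 0.470 to 10.6 ± 2.98 CPM, -1.03 ± 0.11) and Eomes (-0.42 ± 0.15). The defining factors Cdx2 and Elf5 did not pass the test, with means of 3.46 and 0.207 CPM at 24 h. The summed CPM of 5 trophoblast markers, of which 3 fell, was 62.8 to 67.3 at 24 h and 28.9 to 37.9 at 48 h, and the part of trophoblast-like cells in the result was not tested.

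**Figure D3:**
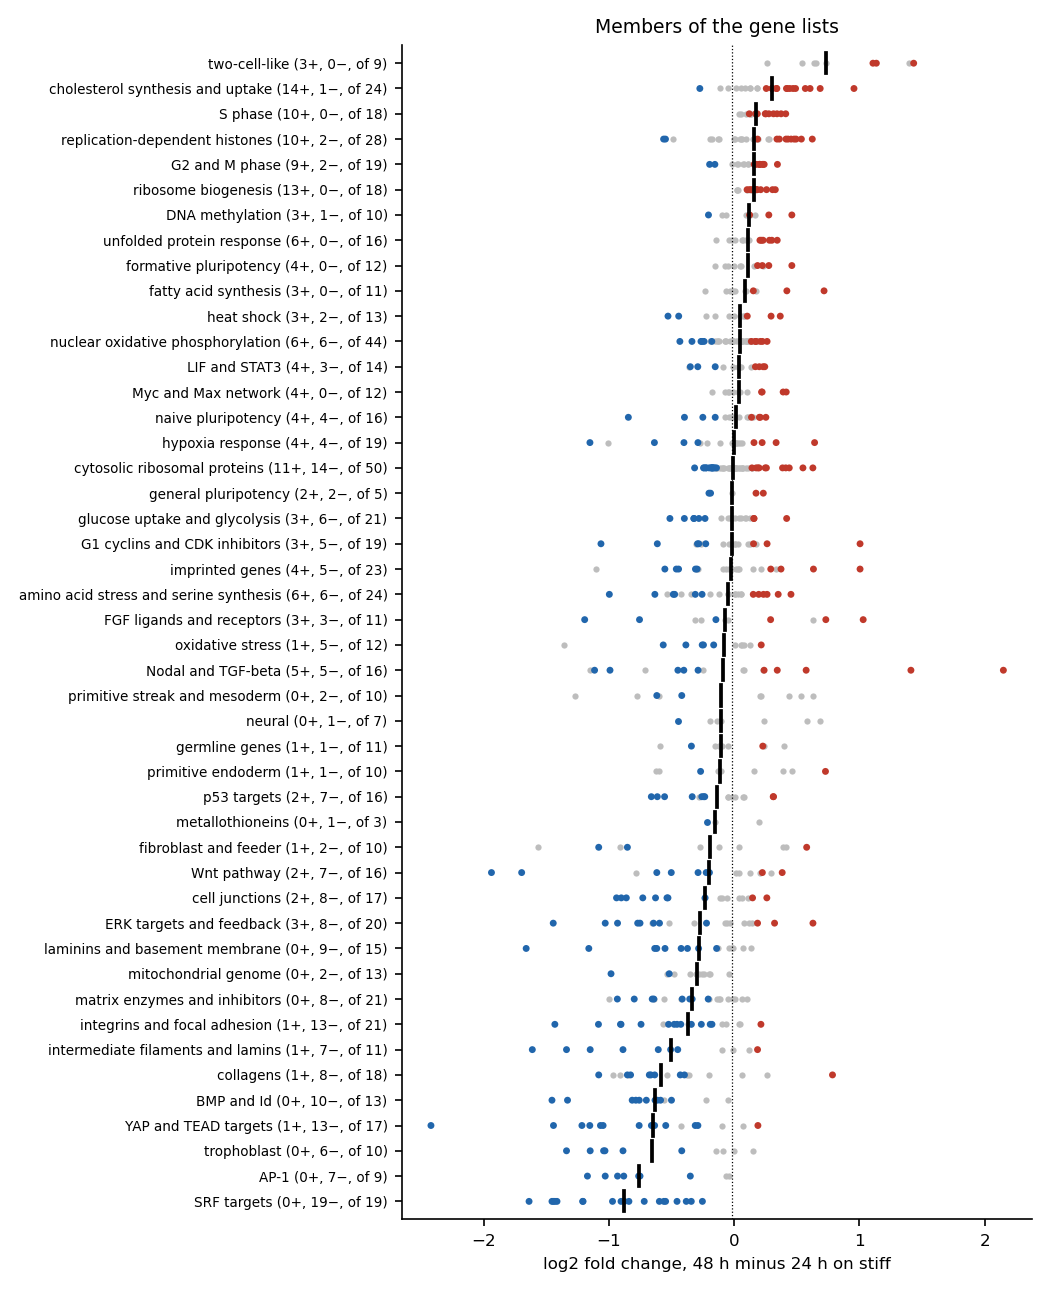
Log2 fold change from 24 h to 48 h on stiff for every tested member of 46 gene lists, ordered by the list's median (black bar), with members past the threshold in red (higher) or blue (lower), others in grey, and the median of all genes as a dotted line. The counts beside each name are those higher (+), lower (−) and tested, and SRF targets lie at the bottom with all 19 members lower.

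Of the signalling lists, that of BMP had calls in 1 direction, with 10 of 13 genes lower and none higher (median -0.63), 7 of them under every pool assignment. The AP-1 list, described below, also had calls in 1 direction. Id1, Id2 and Id3 encode inhibitors of differentiation that BMP induces through Smad proteins. Id1 measured 107, 124 and 120.1 CPM at 24 h and 69.7, 64.8 and 65.5 CPM at 48 h (-0.81 ± 0.094, edgeR adjusted p = 1.93e-09), Id2 went from 114 ± 0.923 to 67.4 ± 2.63 CPM (-0.76 ± 0.057) and Id3 from 81.3 ± 3.63 to 49.95 ± 2.62 CPM (-0.70 ± 0.067). The ligand Bmp4 measured 127, 117 and 106 CPM at 24 h and 80.6, 73.5 and 74.8 CPM at 48 h, a change of -0.61 ± 0.081. The inhibitory Smad6 (-0.63 ± 0.091) and the antagonist Noggin (Nog, -1.45 ± 0.29, from 3.03 ± 0.971 to 1.12 ± 0.308 CPM) fell as well, the latter at a low level. Bambi, a BMP-induced pseudoreceptor, did not pass the test.

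Nodal and TGF-beta genes were split, with 5 of 16 higher and 5 lower, of which 4 and 2 were called under every pool assignment. Lefty1 (ENSMUSG00000038793, chromosome 1, 180935022 to 180938400, plus strand) and Lefty2 (ENSMUSG00000066652, chromosome 1, 180893108 to 180899103, plus strand), neighbouring genes for secreted antagonists that Nodal signalling induces, had the largest increases among the genes named by the rule. Lefty1 measured 8.74, 7.69 and 7.62 CPM at 24 h and 35.3, 39.6 and 31.98 CPM at 48 h, a 4.44-fold increase (log2 2.15 ± 0.11, edgeR adjusted p = 3.32e-20). Lefty2 measured 16.7, 14.3 and 15.2 CPM at 24 h and 37.8, 45.4 and 39.5 CPM at 48 h, a 2.66-fold increase (log2 1.41 ± 0.10, edgeR adjusted p = 2.88e-16). Neither gene overlapped between the times, and both were past the threshold under every pool assignment. The Nodal coreceptor Cripto (Tdgf1, 0.34 ± 0.046, from 253 ± 12.9 to 321 ± 6.60 CPM) and the Smad corepressor Skil (0.57 ± 0.048, from 199 ± 5.89 to 296 ± 13.1 CPM) rose too. Nodal itself did not pass the test, at means of 37.4 CPM at 24 h and 39.3 CPM at 48 h. The members that fell included the ligands Tgfb1 (-0.45 ± 0.11) and Tgfb2 (-1.11 ± 0.13), the signal transducer Smad3 (-0.40 ± 0.083) and Pmepa1, a feedback inhibitor of TGF-beta signalling (-0.29 ± 0.066).

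Of 16 Wnt genes, 7 fell and 2 rose (median -0.20, 2 lower under every pool assignment). The ligand Wnt4 (ENSMUSG00000036856, chromosome 4, 137277489 to 137299726, plus strand) measured 11.8, 14.8 and 12.2 CPM at 24 h and 2.77, 3.41 and 3.79 CPM at 48 h, a 3.83-fold decrease (log2 -1.94 ± 0.19, edgeR adjusted p = 1.3e-11). Tcf7l1, a repressor of Wnt targets and of naive genes, fell from 239 ± 12.3 to 196 ± 5.72 CPM (-0.29 ± 0.049), and the feedback gene Axin2 changed by -0.22 ± 0.078. The antagonist Notum (0.38 ± 0.083) and Lef1 (0.23 ± 0.086) were higher.

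AP-1 and ERK-induced genes fell in part. Of 9 genes of the AP-1 list, 7 were lower (median -0.76), 2 of them, Jun and Fosl2, components of the AP-1 factor, under every pool assignment. Jun measured 17.6, 21.6 and 19.6 CPM at 24 h and 10.2, 11.6 and 12.6 CPM at 48 h, a change of -0.76 ± 0.11, and Fosl2 went from 25.3 ± 1.93 to 11.2 ± 1.11 CPM (-1.17 ± 0.10). Of 20 ERK targets and feedback genes, 8 fell and 3 rose (median -0.27, 4 lower and 2 higher under every assignment), and Fos, Fosb and Fosl1 are in both lists. The phosphatases Dusp1, Dusp4 and Dusp5, which dephosphorylate MAP kinases, changed by -0.60, -0.64 and -0.77 on the log2 scale, and Phlda1 from 77.8 ± 5.65 to 28.6 ± 0.855 CPM (-1.44 ± 0.084). Egr1, an immediate early gene, went the other way, at 34.9, 31.6 and 29.3 CPM at 24 h and 47.7, 54.1 and 46.4 CPM at 48 h (0.63 ± 0.10, edgeR adjusted p = 1.45e-06). The feedback inhibitor Spred1 measured 79.6, 83.01 and 84.2 CPM at 24 h and 103, 103 and 102 CPM at 48 h (0.32 ± 0.067, edgeR adjusted p = 0.000207) and rose under every pool assignment, whereas the feedback inhibitors Spry1, Spry2 and Spry4 did not pass the test. Etv5, a transcription factor downstream of ERK, rose by 0.19, a call made under 1 assignment. Among 11 FGF genes, 3 rose and 3 fell, 1 of each under every assignment, including Fgf15 (5.27 ± 0.456 to 10.8 ± 1.17 CPM, 1.03 ± 0.16) and the extracellular binding protein Fgfbp1 (41.6 ± 1.71 to 24.5 ± 3.39 CPM, -0.76 ± 0.093), while Fgf4, the main ligand of mESCs, did not pass the test. Of 14 LIF and STAT3 genes, 4 rose and 3 fell (median 0.042), and Lifr was called under every pool assignment, the others not. The receptor chains Lifr (0.24 ± 0.045) and Il6st (0.17 ± 0.048) and Stat3 (0.23 ± 0.056) rose, and the targets Bcl3 (-0.29 ± 0.07), Junb and Tfcp2l1 fell. Socs3, the feedback inhibitor that STAT3 induces, did not pass the test.

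General and naive pluripotency genes changed in both directions. Their log2 fold changes ran from -0.20 to 0.23 in the general list and from -0.84 to 0.25 in the naive list. Of 5 general factors, 2 rose and 2 fell, none under every pool assignment. Pou5f1 measured 495, 528 and 499 CPM at 24 h and 612, 594 and 582 CPM at 48 h, a change of 0.23 ± 0.068 (edgeR adjusted p = 0.00754), and Sox2 measured 256, 239 and 247 CPM at 24 h and 286, 279 and 273 CPM at 48 h, a change of 0.17 ± 0.045 (edgeR adjusted p = 0.00235). All 48 h values were above the 24 h values for both. Sall4 (-0.19 ± 0.047) and Utf1 (-0.20 ± 0.052) fell. Among 16 naive genes, 4 rose, 4 fell and 8 did not pass the test, with a median of 0.015. Dppa3 (Stella), a maternal factor that is also expressed in a subset of mESCs, measured 30.2, 28.2 and 28.7 CPM at 24 h and 16.3, 15.5 and 16.6 CPM at 48 h, the largest change of the list at -0.84 ± 0.10 (edgeR adjusted p = 1.66e-09). Tbx3, a naive transcription factor, measured 128, 118 and 124 CPM at 24 h and 92.7, 93.3 and 95.3 CPM at 48 h (-0.40 ± 0.05). Both fell under every pool assignment. Klf5 (-0.25 ± 0.063) and Tfcp2l1 (-0.15 ± 0.05) fell by less, and Zfp42 (Rex1) rose, at 451, 442 and 394 CPM at 24 h and 535, 505 and 493 CPM at 48 h (0.25 ± 0.056), with Klf2 (0.21 ± 0.061), Gbx2 (0.20 ± 0.064) and Tdh (0.14 ± 0.05). None of the 4 naive increases was past the threshold under every pool assignment. Nanog, Esrrb and Klf4 did not pass the test and overlapped between the times, with Nanog at 197 to 216 CPM at 24 h and 212 to 235 CPM at 48 h and Esrrb at 322 to 342 and 323 to 329.5 CPM. Of 12 formative genes, 4 rose and none fell (median 0.11), namely Dnmt3a, Dnmt3b, Lef1 and Etv5. The de novo methyltransferase Dnmt3b measured 216, 236 and 219 CPM at 24 h and 299, 306 and 318 CPM at 48 h (0.46 ± 0.061, edgeR adjusted p = 5.69e-08) and Dnmt3a rose by 0.28, both under every pool assignment. Their partner Dnmt3l fell (-0.20 ± 0.06), and Dnmt1 rose (0.12 ± 0.044), neither under any assignment.

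Of 10 primitive streak and mesoderm genes 2 fell, of 10 primitive endoderm genes 1 rose (Pdgfra, 0.73 ± 0.19) and 1 fell (Dab2, -0.27 ± 0.09), and of 7 neural genes 1 fell (Nes, -0.45 ± 0.064). Nes encodes the filament protein nestin and is in the filament list as well. Of 9 two-cell-like genes, which mark rare cells resembling the cleavage embryo, 3 rose (median 0.73). They were Zscan4c, Zscan4f and Usp17lc, with at most 4.05 CPM in any library, which belong to families of near-identical copies that counting could split, and none was past the threshold under every pool assignment. Of 11 germline genes 1 rose and 1 fell. Of 23 imprinted genes, 4 rose and 5 fell, of which 3 and 1 were past the threshold under every pool assignment. Cdkn1c, a maternally expressed inhibitor of cyclin-dependent kinases, measured 38.6, 38.9 and 38.9 CPM at 24 h and 76.3, 76.2 and 80.9 CPM at 48 h, with narrow ranges far apart (1.005 ± 0.081, edgeR adjusted p = 6.6e-14). The paternally expressed Peg10, with one of the largest decreases in CPM, measured 3320, 3835 and 3348 CPM at 24 h and 2339, 2575 and 2809 CPM at 48 h (-0.44 ± 0.064).

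Of 24 genes of cholesterol synthesis and uptake, 14 rose and 1, Mvk, fell, with a median of 0.30 against -0.015 over all genes, and 9 rose under every pool assignment. The list covers the route from acetyl-CoA units to cholesterol. Hmgcs1, which encodes an early enzyme of the route, measured 120.4, 121 and 136 CPM at 24 h and 195, 179 and 186 CPM at 48 h, a change of 0.57 ± 0.054 (edgeR adjusted p = 1.01e-11). Idi1, the isomerase that makes the second isoprene unit, measured 18.6, 20.97 and 19.2 CPM at 24 h and 30.7, 31.02 and 32.7 CPM at 48 h (0.69 ± 0.08). Later enzymes rose by similar amounts, with Sqle at 0.47 ± 0.068, Cyp51 at 0.49 ± 0.07 and Dhcr7 at 0.61 ± 0.087, and so did Insig1, the sterol-dependent brake on the pathway (0.44 ± 0.095). Srebf2, whose protein drives these genes, did not pass the test. The sterol regulatory element TCACNCCAC was found on either strand in 1 of the 16 genes of the list with a window, namely Hmgcs1. Among all tested genes with a window the share was 1.5%. Of 11 genes of fatty acid synthesis, 3 rose and 8 did not pass the test, the former being the desaturase Scd2 (179, 184 and 182 CPM at 24 h and 279, 319 and 298 CPM at 48 h, 0.72 ± 0.059), Acaca (0.42 ± 0.057) and Fasn (0.15 ± 0.047).

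Of 21 genes of glucose uptake and glycolysis, 6 fell and 3 rose (5 and 1 under every pool assignment). The transporters Slc2a1 (-0.28 ± 0.066) and Slc2a3 (-0.40 ± 0.053) and the regulatory enzyme Pfkfb3 (-0.51 ± 0.088) fell, while lactate dehydrogenase A rose (Ldha, 765, 762 and 827 CPM at 24 h and 1038, 1069 and 1041 CPM at 48 h, 0.42 ± 0.046). Among 19 hypoxia-response genes 4 rose and 4 fell (1 and 2 under every assignment). Bhlhe40, a transcription factor of the clock and hypoxia pathways, went from 55.5 ± 1.84 to 25.01 ± 1.99 CPM (-1.15 ± 0.10) and Vegfa, the vascular growth factor, from 18.5 ± 1.07 to 11.9 ± 0.503 CPM (-0.64 ± 0.082), whereas the oxygen sensor Egln3 rose (14.7 ± 0.969 to 22.9 ± 0.683 CPM, 0.64 ± 0.11). Of 44 nuclear genes of oxidative phosphorylation 6 rose and 6 fell, and of 13 mitochondrially encoded genes 2 fell, with at most 9.13 CPM in any library.

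Of 18 replication factors, 10 rose and none fell (median 0.17, 6 under every pool assignment), and of 19 mitotic genes 9 rose and 2, Cdc20 and Ccnb2, fell (median 0.16, 3 higher under every assignment). Rrm2, a subunit of ribonucleotide reductase, measured 186, 209 and 194 CPM at 24 h and 255, 257 and 270.2 CPM at 48 h (0.41 ± 0.066, edgeR adjusted p = 3e-06), and the helicase subunit Mcm3 went from 343 ± 20.1 to 445 ± 13.6 CPM (0.37 ± 0.055). Of 18 ribosome biogenesis genes, 13 rose and none fell (median 0.16, 3 under every assignment). Nop58, a core protein of small nucleolar particles, measured 479, 489.8 and 445 CPM at 24 h and 588, 585 and 576 CPM at 48 h (0.31 ± 0.049), and nucleolin (Ncl) measured 4587, 4407 and 4134 CPM at 24 h and 4960, 5137 and 4794 CPM at 48 h (0.18 ± 0.042). Mycn rose (186, 199.5 and 206 CPM at 24 h and 253, 260.1 and 263 CPM at 48 h, 0.39 ± 0.044, edgeR adjusted p = 1.14e-09), while Myc did not pass the test. Of 50 cytosolic ribosomal protein genes, 11 rose and 14 fell, and since these genes have many processed copies their counts are uncertain. Of 28 replication-dependent histone genes 10 rose and 2 fell, and copies of these genes are near-identical as well. Of 19 G1 cyclins and CDK inhibitors 3 rose and 5 fell, and the inhibitor Cdkn1a (p21) fell from 33.8 ± 3.06 to 22.1 ± 0.914 CPM (-0.61 ± 0.082).

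Stress genes moved in both directions. Of 16 genes of the unfolded protein response, 6 rose and none fell (median 0.11, 5 under every pool assignment), including the chaperones Hspa5 (347, 369.7 and 378 CPM at 24 h and 467, 463 and 459.7 CPM at 48 h, 0.34 ± 0.05) and Hsp90b1 (0.30 ± 0.046). Of 16 p53 targets, 7 fell and 2 rose (median -0.14), with Plk2 at -0.66 ± 0.069, Phlda3 at -0.56 ± 0.073 and Mdm2 at -0.26 ± 0.048. Bax, an effector of apoptosis and also a p53 target, was higher (0.31 ± 0.057). Of 12 oxidative stress genes 5 fell and 1 rose, with Hmox1, heme oxygenase, at 151, 163 and 152 CPM at 24 h and 104, 106 and 105 CPM at 48 h (-0.57 ± 0.062). Of 24 genes of amino acid stress and serine synthesis 6 rose and 6 fell, the former led by Phgdh, the first enzyme of serine synthesis (54.1 ± 1.16 to 74.04 ± 3.92 CPM, 0.45 ± 0.071), and the latter by Nupr1 (-0.996 ± 0.20). Of 13 heat shock genes 3 rose and 2 fell, and of 3 metallothionein genes Mt1 fell (-0.22 ± 0.064).

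The 12 largest increases and 12 largest decreases among genes with non-overlapping groups and at least 5 CPM in the higher group held several genes outside these lists. After Lefty1 and Lefty2, increases were found for Trh, the precursor of thyrotropin-releasing hormone (52.6, 45.9 and 50.5 CPM at 24 h and 103, 114 and 90.2 CPM at 48 h, 1.04 ± 0.09), for Klhl13, a substrate adaptor of a ubiquitin ligase (139.5, 156 and 153 CPM at 24 h and 306, 298 and 313 CPM at 48 h, 1.03 ± 0.061), for Fut9, a fucosyltransferase that makes the SSEA-1 antigen of mESCs (9.73 ± 0.563 to 19.9 ± 1.54 CPM, 1.03 ± 0.11), and for Abcg1, a sterol exporter (3.33 ± 0.174 to 6.98 ± 0.101 CPM, 1.07 ± 0.17). Hs6st2 (1.05 ± 0.18) and Grk5 (0.97 ± 0.19) completed the well-resolved increases, whereas Hist1h4j and Eno1b have near-identical copies and their counts are uncertain. Among the decreases named by this rule, the largest was that of Tceal5 (6.02, 7.89 and 5.63 CPM at 24 h and 1.71, 0.974 and 1.74 CPM at 48 h, -2.12 ± 0.25, edgeR adjusted p = 4.32e-09). The calcium-binding protein S100a6 measured 73.96, 83.9 and 85.2 CPM at 24 h and 19.8, 21.4 and 23.2 CPM at 48 h, a 3.76-fold decrease (log2 -1.91 ± 0.10, edgeR adjusted p = 8.96e-20), and the small heat shock protein Cryab 37.6, 41.3 and 37.7 CPM at 24 h and 11.02, 11.4 and 12.03 CPM at 48 h (-1.75 ± 0.10). Signalling proteins of the immune system were among the decreases, namely the macrophage growth factor Csf1 (32.5 ± 3.74 to 10.7 ± 0.486 CPM, -1.59 ± 0.12), the chemokine Cxcl10 (5.63 ± 0.521 to 1.75 ± 0.498 CPM, -1.71 ± 0.25) and Ltb (6.15 ± 2.51 to 2.04 ± 0.736 CPM, -1.56 ± 0.28). By difference in CPM, the largest increases were those of Ncl, Hsp90ab1, Set, Hnrnpa2b1, Ptma and Npm1, of which Hsp90ab1, a cytosolic chaperone, measured 5123, 4987 and 5067 CPM at 24 h and 5487, 5537 and 5295 CPM at 48 h (0.10 ± 0.036), and the largest decreases those of Actb, Peg10, Hspg2, Rpl21, Pfn1 and Tmsb10. Set, Ptma, Npm1 and Rpl21 have processed copies and their counts are uncertain. Shisa4, Sbsn, Cited4 and Ahnak2 changed by -1.91, -1.65, -1.59 and -1.57 on the log2 scale.

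Each 48 h library was also set on its own against the mean of the 24 h libraries. For 4529 of the 4535 genes past the threshold (99.9%) all 3 libraries had 1 sign, which the choice of genes from the same libraries largely fixes, against 11312 of all 17702 genes (63.9%). The median change of the SRF list was -0.87, -0.93 and -0.82 in the 3 libraries, that of the YAP and TEAD list -0.72, -0.68 and -0.57, and that of the cholesterol list 0.25, 0.35 and 0.26. The libraries were further apart for the trophoblast list, at -0.89, -0.81 and -0.36. The naive list had no common direction, at 0.11, 0.035 and -0.02.

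**Figure D4:**
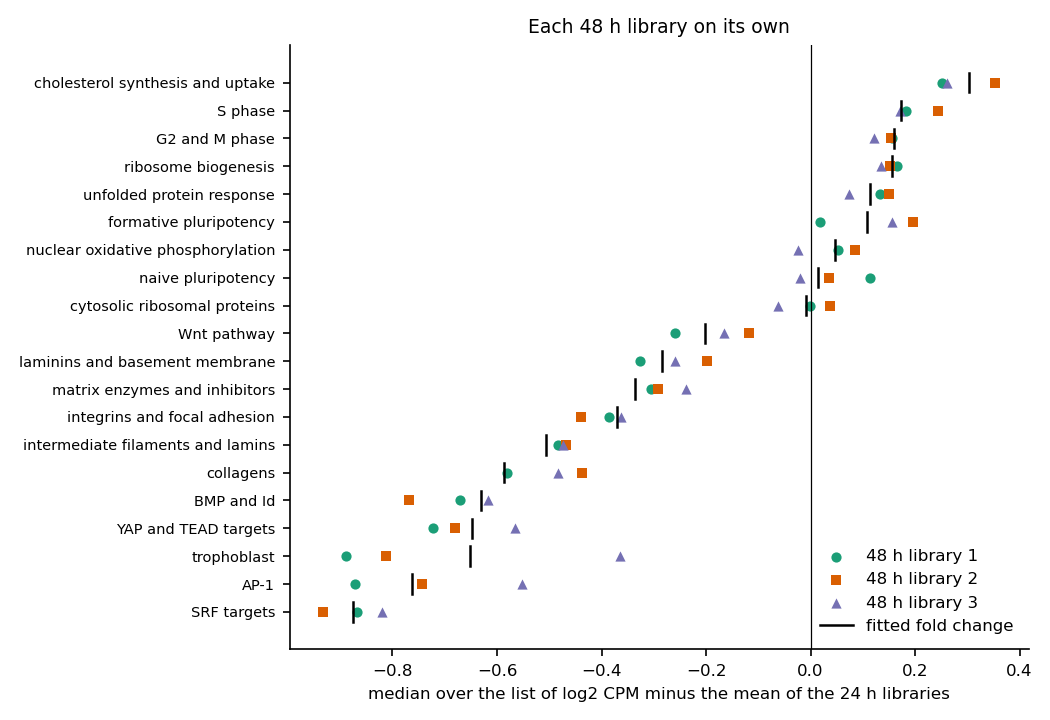
Median over each of 20 gene lists of the log2 CPM in 1 library of 48 h minus the mean of the 24 h libraries (coloured symbols), with the median fitted fold change as a black bar. The 3 libraries lie on the same side of 0 for SRF targets and for cholesterol synthesis, and on both sides for naive pluripotency and cytosolic ribosomal proteins.

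The change over time on stiff gels was set beside that on soft gels, which shares no library with it, to find where stiff gels differ. On soft gels the test called 4315 genes (24.4%), of which 2291 (12.9%) increased with time and 2024 (11.4%) decreased. Genes higher on both gels numbered 1466 (65.7% of the stiff list and 64% of the soft list), genes lower on both 1227 (53.2% and 60.6%), and 5 went in opposite directions. On soft gels 15 of the 19 SRF targets fell and none rose (median -0.53). Of 17 YAP and TEAD genes 10 fell and 1 rose on soft. Of 13 BMP genes 9 fell, and of 21 integrin and focal adhesion genes 9 fell, with none higher. Of 24 cholesterol genes 16 rose and 2 fell on soft. Rises on soft were also found for 12 of 18 replication factors and 13 of 18 ribosome biogenesis genes, with none lower. All 48 h soft libraries came from another pool than the 24 h ones and the 48 h stiff ones. Within these groups, a difference between the gels therefore cannot be told apart from pool. The 24 h libraries of both gels came from the first pool, and all 48 h libraries of both gels but 1 came from other pools. The part of pool in the changes shared by both gels was not tested. The difference itself, tested as an interaction of time and substrate, was past the threshold for 45 genes (0.254%), with 40 more negative and 5 more positive on stiff. The gene list with most of them was that of SRF targets, with 4, namely Cnn2, Flnc, Tpm1 and Vcl. Their log2 fold changes on stiff and on soft were -1.43 and -0.99 for Cnn2, -1.21 and -0.76 for Flnc, -0.88 and -0.53 for Tpm1, and -0.46 and -0.12 for Vcl. Col4a2 had the smallest p of all genes. It fell by 0.63 on stiff and changed by 0.10 on soft (difference -0.73 ± 0.094, edgeR adjusted p = 8.78e-06). At 24 h it was at 80.6 ± 5.06 CPM on stiff and 46.9 ± 3.09 CPM on soft, and at 48 h at 51.9 ± 3.12 and 50.3 ± 4.26 CPM (mean ± SD, n = 3). The means of the gels thus differed at 24 h and lay close together at 48 h. Serpinh1 (difference -0.79 ± 0.12, edgeR adjusted p = 0.000194), Col4a1 (-0.43 ± 0.082), Nes (-0.62 ± 0.10), the guidance ligand Sema3e (-0.73 ± 0.12) and the netrin receptor Unc5b (-0.42 ± 0.079) had the same order, with higher 24 h means on stiff than on soft and 48 h means closer together. Desmoplakin (Dsp) fell on both gels, by 0.90 on stiff and 0.43 on soft (difference -0.47 ± 0.078, edgeR adjusted p = 0.000715). Amot, a regulator of YAP at junctions, did not pass the test on stiff (39.8 ± 2.64 and 35.4 ± 1.72 CPM) and rose on soft (0.48, difference -0.65 ± 0.11). How many genes had this interaction depended on single libraries, since the count was 11 without stiff 48 h library 1, 12 without soft 48 h library 2, 16 without soft 24 h library 3, 19 without stiff 24 h library 2 and 139 without soft 48 h library 3.

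**Figure D5:**
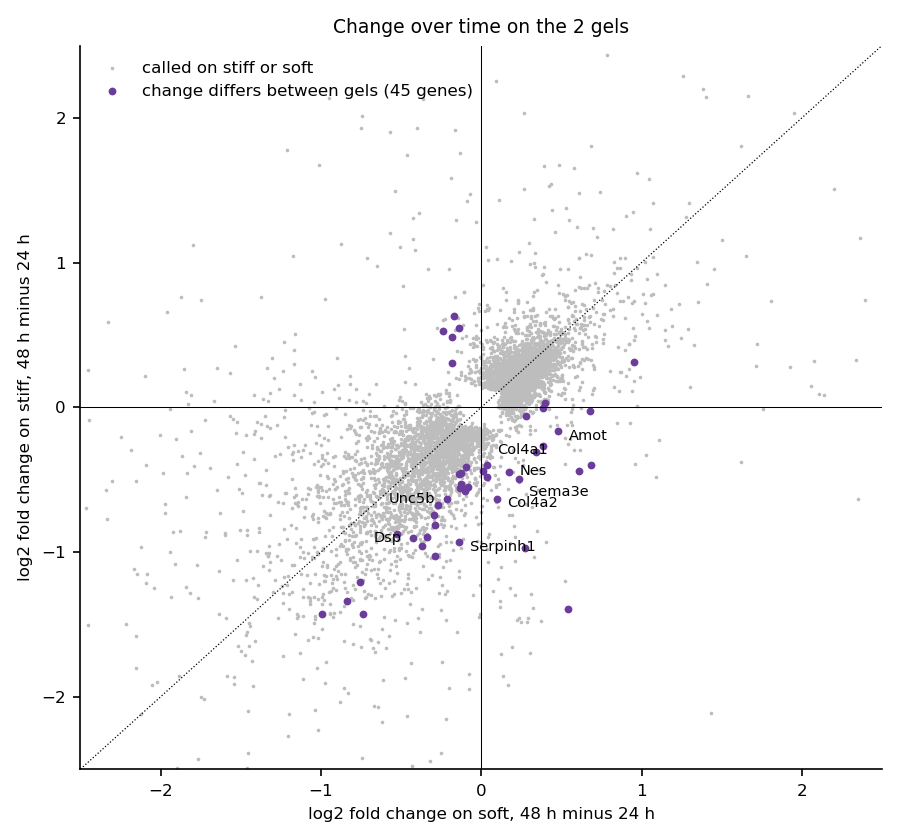
Log2 fold change from 24 h to 48 h on soft gels (horizontal) against that on stiff gels (vertical) for genes past the threshold on either gel (grey) and for the 45 genes whose change differed between the gels (purple), with the line of equal change dotted. Of the 45, 40 lie below the line, that is, their change was more negative on stiff.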

How the data were processed

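RNA of 129m wt mESCs was sequenced in 36 libraries, and the authors deposited raw read counts per gene (49671 genes, of which 49412 were matched to a symbol in GENCODE M21). The submitters' processing notes name STAR 2.5.2a, HTSeq, DESeq and the mm10 build. Strand setting and the handling of multiply mapped reads are not given in the sources used here. Columns were matched to groups by their headers, and 0 columns were left unused. Low-count genes were removed with edgeR's filterByExpr, given the groups, leaving 17702 genes with 99.92% of counts. Counts were scaled by TMM and tested with edgeR's quasi-likelihood test (edgeR 4.0.16, limma 3.58.1, R 4.3.3) on all 36 libraries with 1 coefficient per group, and p-values were adjusted by Benjamini-Hochberg over all genes kept (threshold 0.05). DESeq2 1.42.0 served as an alternative. Fold changes carry a prior count of 0.125, and CPM in single libraries a prior count of 2 on the log2 scale.

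Alternatives were other scalings, filters and sample sets, leaving out each library in turn, and a term for the sequencing pool. No pair of libraries was close enough to be 1 library deposited more than once, since the chi-square per gene was 6.46 to 8.98 within 24 h and 3.2 to 3.48 within 48 h. Tested on simulated data, with 200 of 17702 genes changed, the comparison on stiff recovered 38.8%, 73.1% and 90.9% of genes changed by 1.25-, 1.5- and 2-fold, and 2.17% of its 138 calls were false. For the interaction the shares were 11.9%, 56.7% and 80.3%, and 4.81% of 104 calls were false. These shares describe the simulated data only. In the measured comparison on stiff, 4535 genes were past the threshold and the 48 h libraries came partly from another pool. The bearing of pool on the shares was not tested, so they do not give the share of false calls among the measured genes.

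Genes were named by rule, namely the 12 largest changes per direction among genes past the threshold with non-overlapping groups and a mean of at least 5 CPM, up to 5 or more members of each list that passed the test, the 6 largest differences in CPM per direction and the 8 smallest interaction p-values. The comparison, the lists and the rule were chosen with earlier results of these data known. Some members of the lists are not reported here by name.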

Additional observations from a re-analysis of the deposited data

Results flagged for a closer look

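The change from 24 h to 48 h differed between stiff and soft gels, by the interaction test itself, for 45 genes. Among the 8 genes with the smallest p-values, the change on stiff minus the change on soft (log2) was -0.73 for Col4a2, -0.79 for Serpinh1, -0.62 for Nes, -0.65 for Amot, -0.47 for Dsp, -0.73 for Sema3e, -0.42 for Unc5b and -0.43 for Col4a1. All 8 were more negative on stiff. The soft 24 h and 48 h libraries came from different sequencing pools, so that on soft gels time and pool cannot be told apart. No stiff library of this comparison was in the pool of the soft 48 h libraries. Within these groups, the difference between the gels therefore cannot be told apart from pool either. The interaction was not tested with a pool term.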

How the results depend on the processing

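No paired analysis was possible because the columns carry group names without replicate numbers. On stiff, 3998 to 4644 genes were past the threshold under the other scalings, filters, sample sets and DESeq2, and 3702 to 4137 (1723 to 2077 higher, 1833 to 2060 lower) when 1 library was left out. With a pool term, the counts were 2398 (1191 higher, 1207 lower), 2243 (1169 and 1074) and 2356 (1165 and 1191) for library 1, 2 or 3 in the first pool, where the comparison rests on 1 library of 48 h. On soft, the range was 3216 to 4427, and 3397 to 3949 with 1 library left out. The interaction count of 45 became 96 with DESeq2, 189 without a filter and 29 with only the 5 serum + LIF groups, and ranged from 11 (without stiff 48 h library 1) to 139 (without soft 48 h library 3), and the cause was not tested. Of 372 genes past the threshold that were named by the rule or belong to a list, 176 stayed past it under every alternative, 262 under every alternative other than the pool term, and 0 changed direction. Depth was lower at 48 h. The labels do not say whether the libraries of a group were separate cultures.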

Other observations

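Of 11 germline genes on stiff, Rhox5, a homeobox gene, rose and Ddx4, a germ cell helicase, fell. In the junction list, Pkp2, a desmosomal plakophilin, and Gja1, connexin 43, rose while 8 other members fell. Among imprinted genes, H19, Igf2, Peg3 and Ndn fell with Peg10, and Grb10, Snrpn and Phlda2 rose with Cdkn1c. H19, Igf2, Peg3 and Ndn were each past the threshold under 2 of the 3 pool assignments.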
